A study of Mus musculus with 15 samples.

Results

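TRBV29 receptors are T cell receptor beta chains (TCRβ) built on the V segment family TRBV29, known in the older nomenclature as Vβ7. Every entry that the deposited tables assign to TRBV29 was taken, in all 15 libraries. This gave 3426 clonotypes of 59364 (5.77%), a clonotype being a nucleotide CDR3, which each table lists only where it differs from all others of that library. Of these, 184 came from tetramer-binding libraries and 3242 from the CD8 libraries set beside them.

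Libraries came from NOD mice (non-obese diabetic, inbred and prone to autoimmune diabetes) aged 125 days. Mice labelled Ifngr1 mutant, in which a chain of the interferon-γ receptor is affected, were set beside wild-type (WT) NOD mice, and the labels name the mutation without describing the allele. Spleen and non-draining lymph node cells, pooled for each animal, were stained with an H-2Kd tetramer that carries a peptide of the beta cell antigen IGRP, and magnetic separation divided binding CD8 T cells (here TET) from CD44+ CD8 T cells that passed unbound (here CD8). This gave mutant TET (n = 4), WT TET (n = 3), mutant CD8 (n = 4) and WT CD8 (n = 4). The tables hold beta chain sequences and no other gene, so the cells' identity as CD8 T cells and the purity of the magnetic fractions were not checked here.

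A TCRβ chain is assembled in the thymus by joining a V, a D and a J segment, with bases trimmed and added at the joints. The joint forms the CDR3, the loop that lies over the peptide in the binding site. J segments come in a TRBJ1 cluster, which follows TRBD1, and a TRBJ2 cluster, which follows TRBD2, so that TRBD1 can join either cluster and TRBD2 normally joins TRBJ2. In mice, TRBV29 is also among the families, beside TRBV13 (Vβ8) and TRBV1 (Vβ2), that pair with the invariant Vα14 chain of natural killer T cells. The alpha chain was not measured here, so nothing in these tables tells such cells from other T cells.

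The sequences below show how TRBV29 CDR3s are built, and are those to which the later results return. They are the nucleotide CDR3s of the deposited tables, from the codon of the first cysteine to that of the last phenylalanine. Capitals mark the bases that the tables place between the V and the J alignment, which are D bases and added bases. Names are the translated CDR3, or a description where it is long. The first 4 were the largest TRBV29 clonotypes of mutant TET 1, mutant TET 4, WT TET 3 and mutant CD8 2, and the others recurred between libraries.
Largest clonotype of mutant TET 1: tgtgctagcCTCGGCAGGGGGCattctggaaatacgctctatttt
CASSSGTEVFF: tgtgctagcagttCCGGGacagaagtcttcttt
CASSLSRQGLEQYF: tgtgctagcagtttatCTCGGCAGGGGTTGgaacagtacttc
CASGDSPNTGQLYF: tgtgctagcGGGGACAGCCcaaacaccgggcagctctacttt
TRBJ2-7 clonotype of 5 libraries: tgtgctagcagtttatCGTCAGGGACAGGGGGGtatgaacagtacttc
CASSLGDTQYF: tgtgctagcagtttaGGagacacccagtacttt
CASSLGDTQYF, a second nucleotide form: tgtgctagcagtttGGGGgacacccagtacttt
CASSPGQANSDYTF: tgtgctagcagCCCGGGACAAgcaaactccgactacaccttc

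The CDR3s shared a V-encoded start. Of the 3426 TRBV29 clonotypes, 69.6% opened with tgtgctagcagt, which encodes CASS. In CD8 libraries 79.6 ± 1.68% of TRBV29 clonotypes opened with CASS, against 65.2 ± 0.803% of the clonotypes of all other families (mean ± SD over 8 libraries). The next position held leucine in 36.4 ± 14.2% of TRBV29 clonotypes in TET libraries (n = 7) and 34.6 ± 1.69% in CD8 libraries (n = 8), and in several of these sequences it is read from V bases. All TRBV29 CDR3s were in frame and held no stop codon. The RefSeq annotation (assembly GRCm38.p6, of C57BL/6J) lists Trbv29 as a V segment pseudogene between Trbv28 and Trbv30.

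The TET libraries held 2536 to 60164 counts and 97 to 2199 clonotypes, and the CD8 libraries 17116 to 32856 counts and 2040 to 9827 clonotypes. TRBV29 clonotypes numbered 20, 78, 54 and 19 in mutant TET, 5, 3 and 5 in WT TET, 282, 427, 641 and 549 in mutant CD8, and 121, 287, 382 and 553 in WT CD8. Values within WT TET therefore rest on 13 clonotypes. Mutant TET 4 and WT TET 2 stand apart: they shared 18 nucleotide clonotypes that held 88.9% of the counts of mutant TET 4 and 25.4% of those of WT TET 2, and none of the 18 was TRBV29. In the other 20 pairs of TET libraries the shared clonotypes held 0.0490 to 39.0% of a library's counts. Results on TET libraries are given below with and without these libraries where they differ. Per the design text each library of a group came from its own mouse, and p-values measure the spread between these libraries.

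TRBV29 made up a smaller part of the clonotypes that bound the tetramer than of those that did not. Its share was 2.01, 3.55, 3.31 and 4.83% of the clonotypes of the 4 mutant TET libraries and 4.90, 2.38 and 5.15% of those of the 3 WT TET libraries. In mutant CD8 libraries it was 6.26, 6.28, 6.58 and 5.59%, and in WT CD8 libraries 5.93, 5.40, 5.46 and 6.43%. Every TET library lay below every CD8 library, as was the case for 3 of the 11 V families found in all libraries (27.3%). The group means ± SD were 3.42 ± 1.16% in mutant TET, 4.15 ± 1.53% in WT TET, 6.18 ± 0.419% in mutant CD8 and 5.81 ± 0.480% in WT CD8. Averaged over the strains, the TET minus CD8 difference was -2.21 percentage points (two-sided exact permutation test of the fraction within strain, p = 0.000408, the smallest that 2450 assignments give, adjusted 0.00857 over 21 exact tests).

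By number of clonotypes, edgeR's quasi-likelihood test put TRBV29 at -0.88 in TET over CD8 on the log2 scale (SE 0.13), with an adjusted p of 1.9e-07. This was 1 of 13 families called of 15 tested (86.7%), of which 7 were lower in TET (46.7%). TRBV13 and TRBV1, the other families that pair with the invariant Vα14 chain, were higher in TET by number of clonotypes, at 0.48 (edgeR adjusted p = 1.67e-08) and 0.87 (adjusted p = 1.14e-08) on the log2 scale. By summed counts TRBV13 was at 0.77 (edgeR adjusted p = 0.0074) and TRBV1 at -0.52, which did not pass (adjusted p = 0.516). By its mean share of clonotypes TRBV29 ranked 8th of 23 families in mutant TET and 5th of 23 in WT TET, mutant CD8 and WT CD8.

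By counts, which weigh each clonotype by its abundance, TRBV29 took an even smaller part of most TET libraries. Its share of the counts was 0.925, 1.15, 1.02 and 0.224% in mutant TET and 1.17, 0.0267 and 4.73% in WT TET. It was 5.96, 5.83, 6.34 and 5.29% in mutant CD8 and 4.55, 4.57, 5.13 and 6.42% in WT CD8. WT TET 3 lay within the range of the CD8 libraries, and the 6 other TET libraries lay below all of them. The exact intervals for counting error (Clopper-Pearson, 95%) were 3.94 to 5.63% in WT TET 3 and 0.00729 to 0.0685% in WT TET 2, where TRBV29 had 4 counts. These intervals cover counting error only, since the tables do not say whether counts are reads or unique molecules.

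Averaged over the strains, the difference in the share of counts was -4.11 points (exact permutation p = 0.00122, adjusted 0.00857). On summed counts per family, edgeR gave a log2 fold change of -2.16 (adjusted p = 0.0126), 1 of 9 families called lower of 17 tested (52.9%). Over the 7 mice with both fractions, with the mouse as a replicate block, the differences were -2.19 points by clonotypes and -4.06 by counts. Each then had an exact sign-flip p of 0.0156, the smallest that 7 mice allow, which is 0.0547 after adjustment and so no longer passes, while edgeR with the same block gave -0.91 (adjusted p = 2.7e-10).

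**Figure D1:**
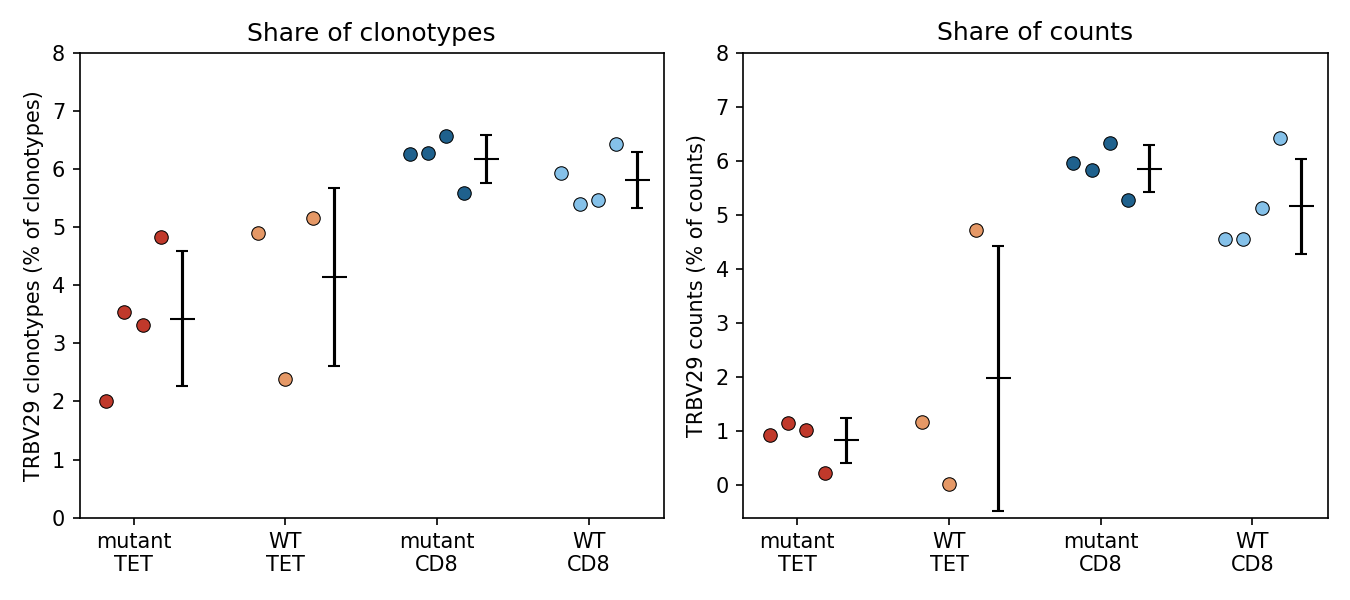
Share of TRBV29 among clonotypes (left, percent of the library's clonotypes) and among counts (right, percent of the library's counts). Each point is a library, and the bars beside the points give the group mean ± SD (n = 4 mutant TET, 3 WT TET, 4 mutant CD8, 4 WT CD8). By clonotypes all 7 TET libraries lie below all 8 CD8 libraries, and by counts WT TET 3 (4.73%) lies among the CD8 libraries.

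A share is set against the rest of the library, and the rest differed between the fractions. TRBV13 took 83.3 ± 10.05% of the counts of TET libraries (n = 7) and 49.0 ± 3.57% of those of CD8 libraries (n = 8). The shares were therefore recomputed with TRBV13 left out of every library, an alternative chosen after seeing the data. TRBV29 then made up 3.64, 6.51, 6.09 and 9.09% of the remaining clonotypes in mutant TET and 10.9, 6.98 and 11.4% in WT TET, against 8.56 to 10.003% in mutant CD8 and 8.34 to 9.79% in WT CD8. Of the remaining counts it took 4.54, 5.96, 4.51 and 5.08% in mutant TET and 6.35, 1.58 and 15.9% in WT TET. In mutant CD8 libraries these values were 11.4, 11.8, 11.3 and 10.03%, and in WT CD8 libraries 9.90, 9.89, 9.79 and 12.1%.

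Without TRBV13, the mutant TET libraries lay below all CD8 libraries by counts, whereas WT TET 3 lay above all of them. The TET minus CD8 difference was then -1.21 points by clonotypes (exact permutation p = 0.233, adjusted 0.407), and was -4.30 points by counts (p = 0.0359, adjusted 0.0943). Neither passed the test, so both calls of the exact test end when TRBV13 is left out. With edgeR over both strains, TRBV29 was still lower in TET without TRBV13, at -0.59 on the log2 scale (SE 0.14), with an adjusted p of 0.000266. The group means did not share this direction. The share of remaining clonotypes was 6.33 ± 2.23% in mutant TET against 9.43 ± 0.621% in mutant CD8. In WT mice it was higher in TET, at 9.74 ± 2.40% against 9.05 ± 0.713% in CD8.

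**Figure D2:**
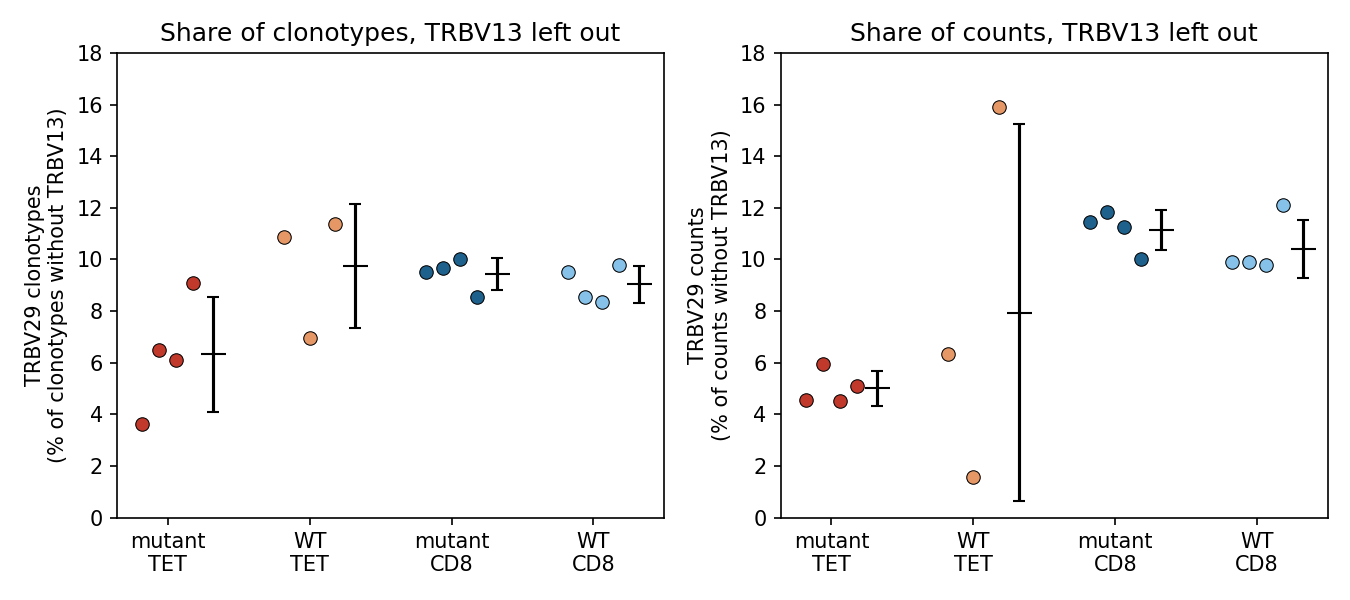
Share of TRBV29 among the clonotypes (left, percent) and counts (right, percent) that remain when TRBV13 is left out of every library. Each point is a library, with the group mean ± SD beside it. By counts the 4 mutant TET libraries (4.51 to 5.96%) lie below all CD8 libraries (9.79 to 12.1%), and WT TET libraries spread from 1.58 to 15.9%.

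Between the strains, no difference in the share of TRBV29 passed the test in either fraction. In TET the mutant minus WT difference was -0.721 points by clonotypes (exact permutation p = 0.429), and by counts the difference was -1.14 points (p = 0.429). The smallest p that 4 against 3 libraries allow is 0.0286. Without WT TET 3 the difference by counts turned to 0.234 points. In CD8 the mutant minus WT difference was 0.369 points by clonotypes (exact permutation p = 0.286) and 0.689 by counts (p = 0.2). With edgeR the mutant over WT log2 fold change was -0.29 in TET (SE 0.49, adjusted p = 0.605; 1 of 8 families called, 12.5%) and 0.08 in CD8 (SE 0.08, adjusted p = 0.671; 0 of 17 families called, 0 with an unadjusted p under 0.05 and 0 called by DESeq2). The difference between these strain effects was -0.38 (SE 0.48, edgeR adjusted p = 0.554; 0 of 15 families called, 3 with an unadjusted p under 0.05, and 2 called by DESeq2). With TMM factors TRBV29 was at -0.04 in TET (edgeR adjusted p = 0.947) and at -1.07 for the difference of strain effects (adjusted p = 0.165). With DESeq2 these were -0.79 (adjusted p = 0.302) and -0.96 (adjusted p = 0.119). TRBV13 was at -0.38 in mutant over WT TET (edgeR adjusted p = 0.0358) and at -0.05 in CD8 (adjusted p = 0.671), with a difference of -0.32 (adjusted p = 0.0719). The call of 1 family in TET ended, with 0 called by edgeR and 1 or 2 at an unadjusted p under 0.05, when mutant TET 2, mutant TET 3 or WT TET 2 was left out, and TRBV13 was at -0.00 on summed counts (edgeR adjusted p = 0.998). TRBV1 was at 0.15 in TET (edgeR adjusted p = 0.605) and at -0.07 in CD8 (adjusted p = 0.730), with a difference of 0.23 (adjusted p = 0.567).

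Clone size was measured as the mean count of TRBV29 clonotypes over the mean count of all clonotypes of the library, which equals the share of counts over the share of clonotypes. In mutant TET libraries the ratio was 0.461, 0.325, 0.308 and 0.0464, and in WT TET libraries 0.238, 0.0112 and 0.918. In mutant CD8 libraries it was 0.952, 0.929, 0.964 and 0.946, and in WT CD8 libraries 0.767, 0.846, 0.938 and 0.998. TRBV29 clonotypes were thus below the library mean in all 15 libraries, though by little in CD8 libraries. In TET libraries (n = 7) TRBV13 held 51.2% of the clonotypes and 83.3% of the counts on average. TRBV1 held 10.9% of the clonotypes and 4.28% of the counts, so a smaller part of the counts was not limited to TRBV29. TRBV31 held 3.83% of the clonotypes and 1.00% of the counts, and TRBV4 3.82% and 2.22%. In WT TET (n = 3) TRBV5 held 5.43% of the clonotypes and 3.05% of the counts. TRBV19 held 4.44% and 2.05% there. Of the families named here, only TRBV13 held a larger part of the counts than of the clonotypes. How many families lay below the mean of each TET library was not counted. A low ratio in TET was thus not limited to TRBV29. The difference of TRBV29 from CD8 is not shown to be particular to it. On the log2 scale the TET minus CD8 difference in the TRBV29 ratio was -2.42 (exact permutation p = 0.00122, adjusted 0.00857).

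**Figure D3:**
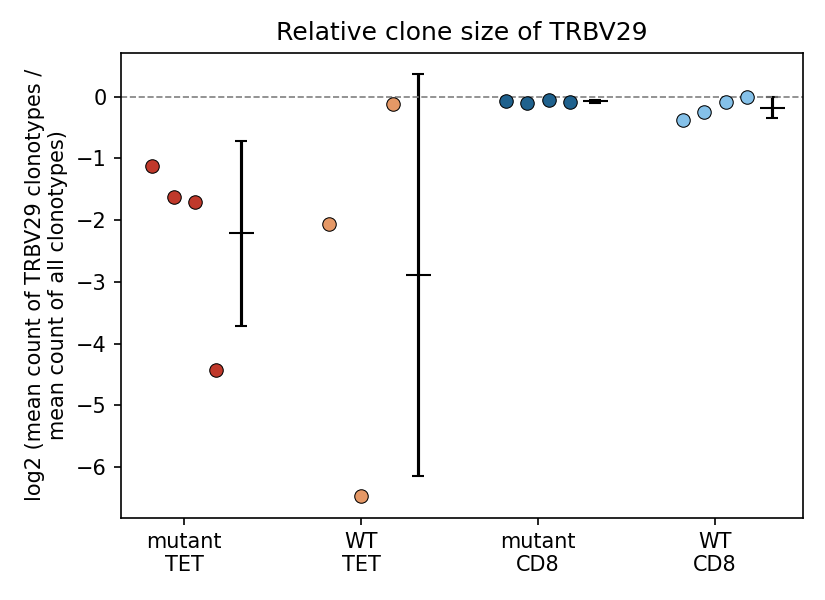
Relative clone size of TRBV29, as the log2 ratio of the mean count of TRBV29 clonotypes to the mean count of all clonotypes of the same library. Each point is a library, with the group mean ± SD beside it, and the dashed line at 0 marks equal size. The CD8 libraries lie between -0.38 and 0.00, and the TET libraries between -6.48 and -0.12.

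The size of this difference moved with the libraries that stand apart and with TRBV13. With WT TET 2 and mutant TET 4 left out together the difference was -1.16 (exact permutation p = 0.00571, adjusted 0.0400), and with TRBV13 left out it was -0.76 (p = 0.0208, adjusted 0.0857). With the mouse as a replicate block it was -2.36 (exact sign-flip p = 0.0156, adjusted 0.0547). Between the strains the mean log2 ratio differed, mutant minus WT, by 0.67 in TET (exact permutation p = 0.714) and by 0.10 in CD8 (p = 0.343). Neither passed the test.

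Within a library, the mean log2 count of TRBV29 clonotypes differed from that of all other families by -1.01 in TET libraries, lower in 6 of 7 (two-sided exact sign-flip p = 0.0313, adjusted 0.0729), which did not pass. It was -0.64 without WT TET 2 (exact sign-flip p = 0.0625, adjusted 0.140) and -0.21 with TRBV13 left out (p = 0.359, adjusted 0.520). In CD8 libraries the difference was -0.02 (exact sign-flip p = 0.438). When TRBV13 was left out, TRBV29 clonotypes were larger than the remaining ones in CD8 by 0.26 on the log2 scale (exact sign-flip p = 0.00781, adjusted 0.0820). By mean count rather than mean log2 count, TRBV29 lay below the pool of all other families in 8 of 8 CD8 libraries. Of the 15 families compared, 13 lay below the pool of their others in this way (86.7%). TRBV13 and TRBV1 had larger mean counts, and TRBV29 ranked 3rd of 15.

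A clonotype was called large at 0.1% of the counts of its library. Of the 171 TRBV29 clonotypes in mutant TET, 2 reached this. Over all families 217 of 997, 94 of 2199, 176 of 1631 and 34 of 393 clonotypes did in mutant TET 1 to 4. In WT TET 7 of 13 TRBV29 clonotypes reached it, against 217 of 325 over all families. Of these 7, 4 were in WT TET 3, where 0.1% is under 3 counts. In CD8 libraries 4 TRBV29 clonotypes reached it, of 334 of all families that did. The largest TRBV29 clonotype of mutant TET 1 (TRBJ1-3 or TRBJ1-5) had 93 counts, 0.538% of the library and 58.1% of its TRBV29 counts. In mutant TET 4 it was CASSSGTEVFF with 83 counts, 61.5% of the TRBV29 counts of that library. In WT TET 3 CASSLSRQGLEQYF had 55 counts, which were 2.17% of the library and 45.8% of its TRBV29 counts. The next of its 5 TRBV29 clonotypes had 29 counts.

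The largest clonotypes of the remaining TET libraries were smaller. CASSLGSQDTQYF led in mutant TET 2 with 12 counts, and a TRBJ1-1 or TRBJ1-2 clonotype of 16 residues in mutant TET 3 with 17. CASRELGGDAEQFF was 1 of 2 with 20 counts in WT TET 1, and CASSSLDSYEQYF had 2 counts in WT TET 2. In CD8 libraries the largest TRBV29 clonotype held 13 to 48 counts and 0.834 to 2.80% of the TRBV29 counts, and the most abundant was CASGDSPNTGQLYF with 48 counts in mutant CD8 2. In the other mutant CD8 libraries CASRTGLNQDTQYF had 18 counts, a TRBJ1-3 or TRBJ1-5 clonotype of 15 residues 22, and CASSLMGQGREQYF, 1 of 2 tied, 16. In WT CD8 libraries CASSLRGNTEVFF had 21, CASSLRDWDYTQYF 24, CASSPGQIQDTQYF 24 and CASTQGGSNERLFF, 1 of 3 tied, 13.

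TRBV29 used the TRBJ1 cluster more often than the pool of all other families in CD8 libraries. The TRBJ1 cluster was used by 30.9, 29.04, 31.4 and 28.2% of TRBV29 clonotypes in mutant CD8 libraries, where all other families gave 28.4, 26.8, 27.6 and 25.5%. In WT CD8 libraries TRBV29 gave 38.8, 34.8, 37.4 and 35.4%, against 26.5, 30.1, 30.3 and 27.9% for all other families. TRBV29 was higher in 8 of 8 CD8 libraries, by 5.36 points on average (two-sided exact sign-flip p = 0.00781, the smallest that 8 libraries allow, adjusted 0.0410). The mean TRBJ1 share over the 8 CD8 libraries was 33.3% for TRBV29, against 33.5% for TRBV20, 33.01% for TRBV19 and 31.8% for TRBV13. By its TRBJ1 share TRBV29 ranked 7th of 15 families in mutant CD8 and 1st of 15 in WT CD8. Of the 15 families, 4 lay above the pool of all others in every CD8 library (26.7%), while 8 of 15 lay to 1 side of that pool in every library (53.3%). Without any 1 of the 8 libraries the adjusted p was 0.0547 to 0.0656, because 7 libraries cannot give a p below 0.0156, and the difference was 4.36 to 5.81 points. Weighted by counts it was 4.79 points (exact sign-flip p = 0.0234, adjusted 0.109).

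Between the strains, the TRBJ1 share in CD8 gave the smallest p that 4 against 4 libraries allow, but did not pass after adjustment. The TRBJ1 share of TRBV29 clonotypes was 29.9 ± 1.48% in mutant CD8 and 36.6 ± 1.84% in WT CD8 (n = 4 each), and the mutant libraries all lay below the WT libraries. TRBV29 was the 1 family of 15 whose strains did not overlap in this measure (6.67%). The direction was not particular to TRBV29. The mean TRBJ1 share was lower in mutant than in WT CD8 in every family compared except TRBV16 (21.5 against 20.4%). Families close to TRBV29 in rank, TRBV20 (31.9 against 35.1%) and TRBV19 (31.5 against 34.5%), were among those lower in mutant CD8. The difference for TRBV29 was -6.77 points (two-sided exact permutation p = 0.0286, the smallest possible). With an adjusted p of 0.0729 (exact permutation) it missed the threshold, and it ranged from -7.37 to -6.04 points when each library was left out. Measured against the other families of the same library, the TRBJ1 excess of TRBV29 was 2.77 points in mutant CD8 and 7.94 points in WT CD8, a difference of -5.17 (exact permutation p = 0.0286, a comparison added after seeing the data).

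In TET libraries the TRBJ1 share varied too widely for a comparison to pass. It was 55, 35.9, 46.3 and 63.2% of TRBV29 clonotypes in mutant TET and 40, 66.7 and 20% in WT TET, where all other families gave 43.9, 45.2, 43.2 and 34.0% in mutant TET and 40.2, 31.7 and 25% in WT TET. In mutant TET 1 the exact 95% interval for 11 of 20 clonotypes ran from 31.5 to 76.9%, and in WT TET 2 that for 2 of 3 ran from 9.43 to 99.2%. All other families were also higher in every mutant TET library than in mutant CD8, where they gave 25.5 to 28.4%. In WT mice they averaged 32.3% in TET against 28.7% in CD8. A higher TRBJ1 share in TET was thus not particular to TRBV29, and its TET minus CD8 difference relative to other families was not tested. For TRBV29 itself the TET minus CD8 difference was 12.9 points (exact permutation p = 0.0576, adjusted 0.121). Without WT TET 3, where 1 of 5 clonotypes used TRBJ1, it was 18.5 points (exact permutation p = 0.000952, adjusted 0.00500) and passed. Without WT TET 2 it was 6.79 points (exact permutation p = 0.246, adjusted 0.369), and without WT TET 2 and mutant TET 4 together 4.61 points (p = 0.343, adjusted 0.424). Mutant and WT TET libraries differed by 7.87 points (exact permutation p = 0.6), which turned to -3.25 without WT TET 3.

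**Figure D4:**
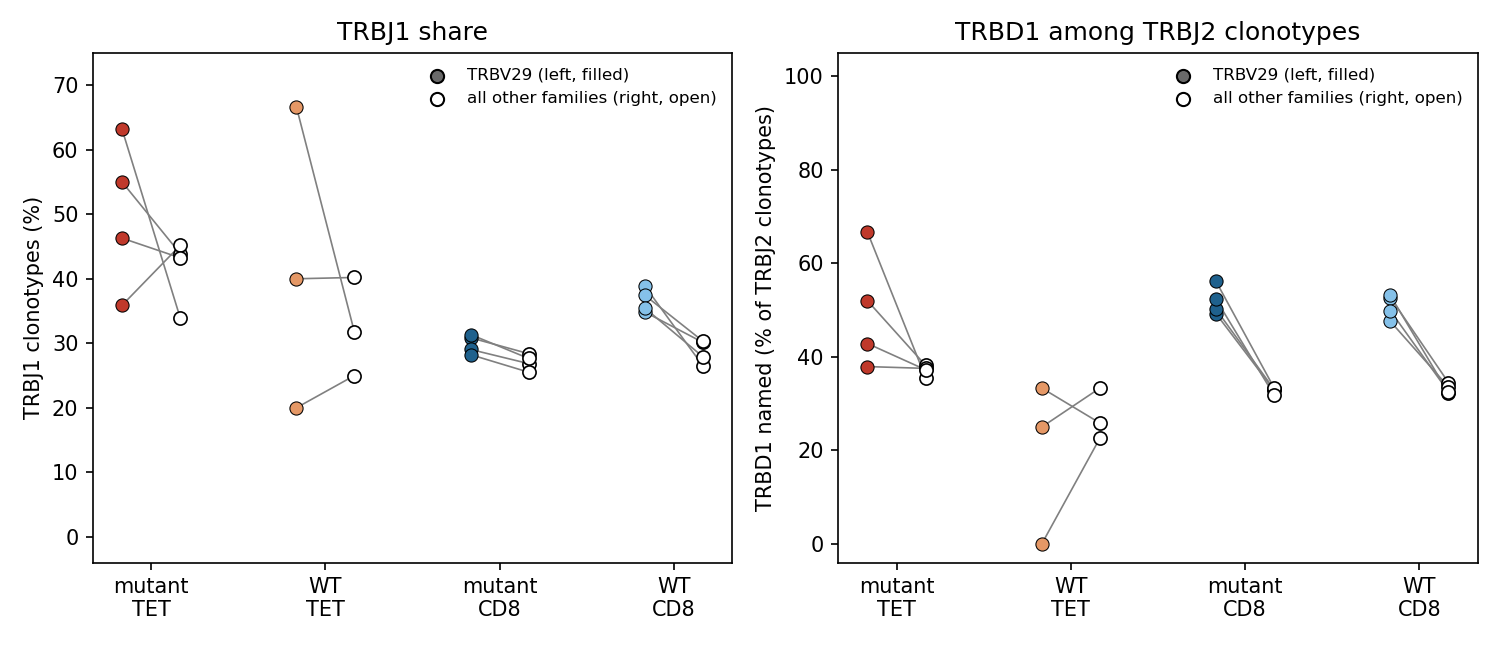
TRBJ1 share of clonotypes (left, percent) and share of TRBJ2 clonotypes for which the tables name TRBD1 (right, percent), for TRBV29 (filled) and all other families (open) of the same library, joined by a line. In the 8 CD8 libraries TRBV29 lies above the other families in both panels, and the 7 TET libraries scatter, with 3 to 78 TRBV29 clonotypes each.

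Individual J segments are not named in the tables, so they were grouped by cluster and by the deposited J length into 8 classes. TRBJ1-4, a class of its own, was the segment that TRBV29 used more than the pool of all other families in 8 of 8 CD8 libraries. The shares were 8.56 ± 2.13% against 5.75 ± 0.550%. The margin was small in mutant CD8 4 (5.28 against 5.15%) and mutant CD8 3 (6.55 against 6.08%). TRBJ2-1 was used less in 8 of 8, with 11.6 ± 1.74% against 14.3 ± 0.623%, and TRBJ2-7 in 7 of 8, with 18.3 ± 2.17% against 22.3 ± 1.38%. The class of TRBJ2-3, TRBJ2-4 and TRBJ2-5 held 30.02 ± 2.68% of TRBV29 and 29.004 ± 1.17% of all other clonotypes. Between the strains, TRBJ1-4 made up 9.57, 7.96, 6.55 and 5.28% of TRBV29 clonotypes in mutant CD8 and 10.7, 10.8, 7.07 and 10.5% in WT CD8, and the groups overlapped. TRBJ2-2 made up 10.6, 7.26, 7.18 and 7.65% in mutant CD8 and 2.48, 5.92, 6.02 and 7.41% in WT CD8, and also overlapped. These classes were described without a test, and how many single families lie to 1 side of the others in a class was not counted.

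The D segment named for TRBV29 also differed from that of other families. Among TRBJ2 clonotypes of the CD8 libraries, which can carry either D segment, TRBD1 was named in 51.4 ± 2.70% of TRBV29 clonotypes and 33.0 ± 0.843% of all others (n = 8). TRBD2 was named in 26.0 ± 1.87% of TRBV29 and 44.8 ± 0.601% of all others. TRBV29 had the highest TRBD1 share of the 14 families compared, and 2 of the 14 lay above the pool of all others in every CD8 library (14.3%). The strains overlapped, with 49.2, 50.2, 56.1 and 52.3% in mutant CD8 and 52.7, 47.6, 53.1 and 49.9% in WT CD8. In mutant TET libraries the value was 66.7, 52, 37.9 and 42.9%, and in WT TET libraries 33.3, 0 and 25%, of 3, 1 and 4 clonotypes. The D segment is called from few bases, and no test was made of these shares. Among TRBJ1 clonotypes of CD8 libraries TRBD1 was named in 64.4 ± 3.29% of TRBV29 and 60.1 ± 2.00% of all others.

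TRBV29 CDR3s were on average slightly shorter than those of other families, a difference that missed the adjusted threshold. In CD8 libraries the mean length of TRBV29 CDR3s was 13.52, 13.65, 13.58 and 13.76 residues in mutant mice and 13.93, 13.64, 13.62 and 13.64 in WT mice. All other families gave 13.93, 13.96, 13.92 and 13.90 in mutant CD8 and 13.85, 13.89, 13.91 and 13.90 in WT CD8. TRBV29 was shorter in 7 of 8 CD8 libraries, WT CD8 1 being the exception. The mean difference was -0.242 residues (two-sided exact sign-flip p = 0.0156, adjusted 0.0547), which did not pass after adjustment. TRBV29 ranked 13th of 15 families by CDR3 length in CD8. Of the 15, 4 lay below the pool of all others in every library (26.7%), and TRBV29 did not.

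The difference lay at both ends of the length range and in the TRBJ2 cluster. CDR3s of at most 11 residues made up 8.68 ± 1.86% of TRBV29 clonotypes and 5.66 ± 0.261% of all others in CD8 libraries, and those of at least 15 residues 28.0 ± 2.69% and 34.6 ± 1.02%. TRBV29 clonotypes with TRBJ2 averaged 13.61 ± 0.134 residues, against 13.95 ± 0.0274 for all others with TRBJ2. With TRBJ1 the means were 13.79 ± 0.124 and 13.80 ± 0.0530. Between the V and J alignments the tables left 9.78 ± 0.307 bases in TRBV29 and 9.58 ± 0.0916 in all others (n = 8 each). These values were described without a test.

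**Figure D5:**
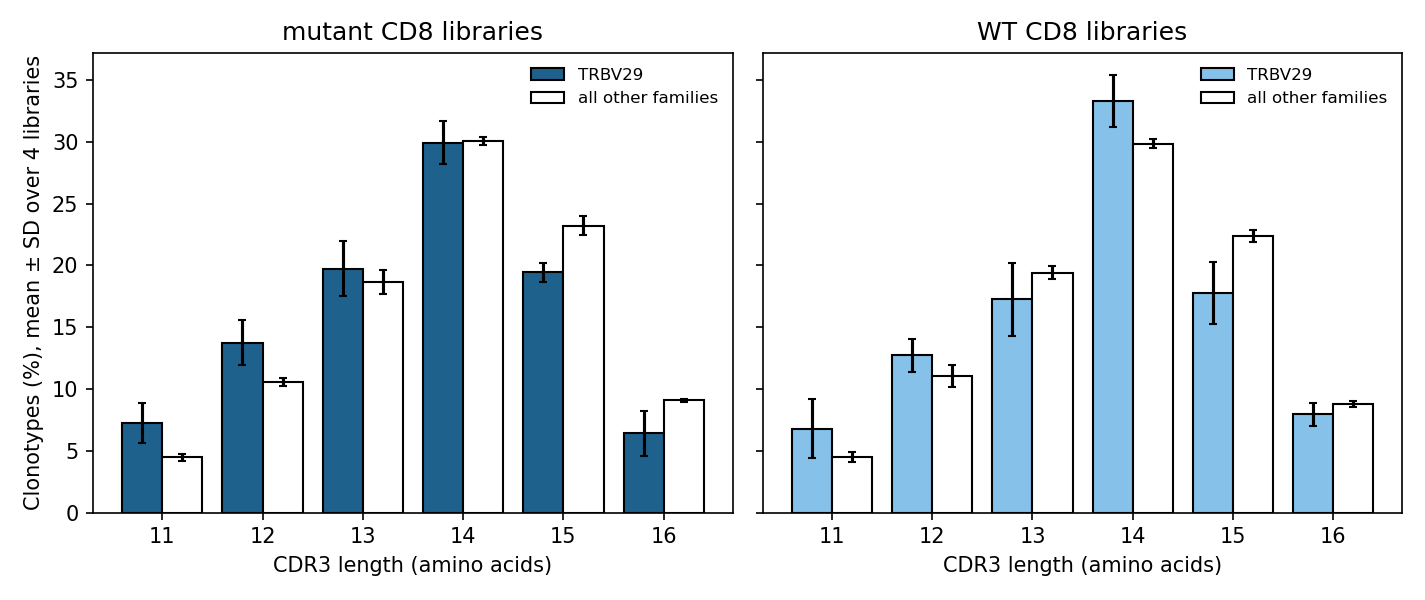
CDR3 length distribution of TRBV29 clonotypes (filled bars) and of clonotypes of all other families (open bars) in mutant CD8 (left) and WT CD8 (right) libraries, as the percentage of clonotypes at each length in amino acids from 11 to 16. Bars give the mean over 4 libraries and error bars the SD. TRBV29 bars are higher at 11 and 12 residues and lower at 15 and 16 in both strains.

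In TET libraries TRBV29 CDR3s averaged 13.80, 13.72, 13.67 and 13.68 residues in mutant mice and 12.80, 13.33 and 13.60 in WT mice. TRBV29 was shorter than the other families of its library in 7 of 7, with a mean difference of -0.254 residues (exact sign-flip p = 0.0156, the smallest possible, adjusted 0.0547). Weighted by counts this difference turned to 0.376 residues (exact sign-flip p = 0.109). Every mutant TET library lay above every WT TET library, a difference of 0.473 residues (exact permutation p = 0.0286, the smallest possible, adjusted 0.0729) that rests on 13 WT clonotypes and did not pass. It was 0.251 without WT TET 1 (exact permutation p = 0.0667), 0.266 at equal depth (p = 0.429) and 0.0981 weighted by counts (p = 0.8). Measured against the other families of the same library it was 0.243 residues (exact permutation p = 0.143, added after seeing the data). Those other families averaged 13.92, 13.89, 13.92 and 13.75 residues in mutant TET and 13.57, 13.49 and 13.86 in WT TET. How many single families were shorter in 7 of 7, or had strains that did not overlap, was not counted in TET. In CD8 the strains differed by -0.0786 residues (exact permutation p = 0.486), and TET differed from CD8 by -0.186 residues (p = 0.208).

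Most TRBV29 receptors were private to a library. The 3426 clonotypes gave 3147 amino acid receptors, of which 95.9% were found in 1 library. In TET libraries, 13 receptors were found in at least 2, none of them in a WT TET library, and 11 of the 13 had 1 nucleotide sequence throughout. WT TET libraries held 13 TRBV29 clonotypes in all, so this depth cannot show whether such receptors are rarer there. The largest clonotype of mutant TET 1 was found with the same nucleotide sequence in mutant TET 1, 3 and 4, at 93, 11 and 12 counts, and in no CD8 library. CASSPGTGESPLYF was found in 3 mutant TET libraries with 5 counts in all and in no CD8 library. The TRBJ2-7 clonotype printed above had 1, 1 and 12 counts in mutant TET 1, 2 and 3, and also 4 counts in mutant CD8 1 and 2 in WT CD8 2, again with 1 nucleotide sequence.

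The other receptors found in 2 TET libraries were low in count. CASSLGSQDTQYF, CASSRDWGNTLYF, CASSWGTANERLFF and a pair of 16-residue receptors had 7 to 17 counts in all and were each also found in 1 CD8 library. The pair are shown here since each kept 1 nucleotide sequence in mutant TET 2, mutant TET 3 and a WT CD8 library.
TRBJ1-3 or TRBJ1-5 receptor: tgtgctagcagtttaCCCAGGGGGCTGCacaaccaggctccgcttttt
Receptor of the TRBJ2-3, TRBJ2-4 and TRBJ2-5 class: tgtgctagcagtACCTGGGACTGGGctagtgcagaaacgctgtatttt
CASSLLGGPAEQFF, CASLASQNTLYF and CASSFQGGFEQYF had 9, 3 and 2 counts and were found in no CD8 library. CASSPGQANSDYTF was found in 2 TET and 3 CD8 libraries by 3 nucleotide sequences. Carry-over between libraries was not tested for these receptors. When every clonotype with 10 times its count elsewhere was dropped, the TET minus CD8 difference in clonotype share was -2.04 points (exact permutation p = 0.000816, adjusted 0.00857).

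In CD8 libraries the most widely shared TRBV29 receptor was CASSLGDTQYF, found in 6 libraries, 4 of them CD8, by 3 nucleotide sequences, of which 2 are printed above. It had 22 counts over the 6 libraries and averaged 0.00770% of the counts of a CD8 library. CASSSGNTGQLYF and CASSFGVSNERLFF were found in 4 CD8 libraries by 4 and 2 nucleotide sequences. A TRBJ2-2 receptor of 16 residues, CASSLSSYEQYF, a TRBJ1-1 or TRBJ1-2 receptor of 14 residues, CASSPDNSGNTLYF, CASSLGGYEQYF, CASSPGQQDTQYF and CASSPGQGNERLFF were found in 3 CD8 libraries, each by 2 to 4 nucleotide sequences, and were chosen among the receptors found in 3 by their mean share of CD8 counts. None of these 9 was found in a TET library. Of all 3147 TRBV29 receptors 167 were found in a TET library, so absence from TET was the usual case and not particular to these 9.

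Overlap of TRBV29 clonotypes between the fractions was close to that of other families. Of the 184 TET clonotypes of TRBV29, 25 (13.6%) were found by nucleotide sequence in any CD8 library, against 14.3% of the 5361 TET clonotypes of all others. In another TET library 14.7% of TRBV29 clonotypes were found, against 14.1% of all others. In the CD8 library numbered alike 3 TRBV29 clonotypes (1.63%) were found, against 2.22% of all others. These 3 were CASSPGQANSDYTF with 2 counts in each library and the TRBJ2-7 clonotype with 1 count in TET and 4 in CD8, both in mutant mouse 1, and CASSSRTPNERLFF with 3 and 2 counts in mutant mouse 2. These overlaps were not tested, since clonotypes of a library are not replicates.

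Over the 15 libraries, the families whose share of clonotypes followed that of TRBV29 most closely, among the 10 others found in every library, were TRBV17 (Pearson r 0.796), TRBV3 (r 0.789) and TRBV4 (r 0.123). The points share the library and fall into 2 fractions. Within the 8 CD8 libraries r was 0.0497 for TRBV17, 0.194 for TRBV3 and 0.316 for TRBV4, so the likeness of TRBV17 and TRBV3 lay between the fractions. In CD8 libraries TRBV29, at 5.99 ± 0.462% of clonotypes, stood in order between TRBV1 (6.12 ± 0.980%) and TRBV19 (5.98 ± 0.488%), from which it differed by less than their SD over libraries.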

How the data were processed

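Each library has a table in which the authors gave, for every nucleotide CDR3, a count and a fraction of the library total, with the V family, D segment, J cluster, alignment positions and CDR3 length. Per the labels' protocols, RNA was amplified by template switching with 9-nt molecular identifiers and nested PCR and sequenced on a MiSeq instrument. The deposited count is not stated to be reads or molecules, and the deposited fraction refers to a total of which the tables held 94.2 to 99.2%, so shares were recomputed from counts. The sources used here give neither caller nor build. The WT TET library of mouse 4 was not analysed here. No value columns were left unassigned to a sample. Alpha chain entries (4, holding 6 counts) were dropped, and no sequence was named beyond family level. A clonotype with no count could make up 0.00499 to 0.118% of a TET library (3 counts).

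TRBV29 entries were aligned to V references of 306 bases or, in 287 of the 3426, of 295 bases. J classes were assigned from cluster and deposited J length, which was 19 nucleotides above the RefSeq length (GRCm38.p6), and 3 clonotypes, none of TRBV29, had no class.

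Shares, relative clone size, TRBJ1 share and CDR3 length were tested by exact two-sided permutation over libraries, or sign-flip tests within libraries, adjusted (Benjamini-Hochberg) over 21 tests. Clonotypes per V family were tested with edgeR 4.0.16 (quasi-likelihood, R 4.3.3, no dispersion trend, filterByExpr minimum count of 10, library size the number of clonotypes), adjusted over all families tested at a threshold of 0.05. SE is the absolute log2 fold change over the square root of F. DESeq2 1.42.0, TMM factors, other filters, equal depth (200 subsamples to 2536 or 17116 counts), leaving out each library and a mouse block were alternatives. The edgeR comparison of the fractions was checked on simulated clonotype numbers. In these no family other than TRBV29 differed, and all families and libraries had the same dispersion. That check did not cover differences in many families or the wider spread of TET libraries. The exact tests were checked on set values with a known p.

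Named receptors are the largest TRBV29 clonotype of each library, the 10 found in most CD8 libraries (ties by mean share of CD8 counts), all found in at least 2 TET libraries and all found in TET and CD8 of 1 mouse. Named families are TRBV13, TRBV1 and the 3 most correlated. Alternatives named as chosen after seeing the data include leaving out TRBV13, the shorter V reference or 2 TET libraries. The members, lists and tests were chosen with earlier results of these data known. Pairing of same-numbered TET and CD8 libraries rests on the design text, which counts 4 mice per strain for both fractions. Their deviations from group means over 15 families correlated with r of -0.318 to 0.630, highest with the own CD8 library in 2 of 7.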

Additional observations from a re-analysis of the deposited data

Results flagged for a closer look

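WT CD8 1 was far from the other WT CD8 libraries in CDR3 length: its TRBV29 clonotypes averaged 13.93 residues, and 0.0731 residues more than the other families of that library, where TRBV29 was shorter in the other 7 CD8 libraries. It held 121 TRBV29 clonotypes, the fewest of the CD8 libraries. Values of 4 libraries were examined in 24 sets, 2 stood apart, and chance alone marks about 1 set in 20.

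The TET minus CD8 difference in the share of counts was -5.02 points in mutant and -2.77 points in WT mice, a difference of -2.25 (two-sided exact permutation over 7 mice, p = 0.0286, the smallest possible, adjusted 0.143 over 5 measures). WT TET 3, with 1 clonotype at 2.17% of its counts, is 1 of the 3 WT values.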

How the results depend on the processing

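Of 164 alternatives other than leaving out a library, 150 kept the direction and the side of the threshold. With the mouse as a replicate block, the TET minus CD8 differences in the shares of clonotypes and counts and in relative size were -2.19, -4.06 and -2.36, each with an exact sign-flip p of 0.0156 and no longer past the threshold after adjustment. The mouse block changed no other call for TRBV29. With TRBV13 left out, chosen after seeing the data, they were -1.21, -4.30 and -0.76 and did not pass, and TRBV29 minus other families in clone size in CD8 turned to 0.26. The cause was not tested. That clone size difference was -0.10 without clonotypes of 1 count, and passed (exact sign-flip p = 0.00781, adjusted 0.0328), and 0.0731 by median clone size. Weighted by counts, the TRBJ1 excess of TRBV29 in CD8 was 4.79 points and did not pass, and the CDR3 length difference in TET turned to 0.376. Without WT TET 2 and mutant TET 4 together, chosen after seeing the data, the mutant minus WT difference in relative size in TET turned to -0.38 and the TRBJ1 excess in TET to -0.0673 points. Relative to other families, the mutant minus WT difference in TRBJ1 share in TET turned to -1.40 points. Leaving out each library gave 4.36 to 5.81 points for the TRBJ1 excess in CD8, 6.79 to 18.5 for TRBJ1 in TET minus CD8, -3.25 to 20.1 for mutant minus WT in TET, -1.12 (without WT TET 2) to 2.06 for relative size and -2.12 to 0.234 for the share of counts, mutant minus WT in TET. Of edgeR's families in TET between the strains, 1 was called, against 0 with TMM factors, no filter, summed counts, the carry-over filter, a replicate number block or TRBV13 left out. For the difference of strain effects 0 were called, against 2 with DESeq2 and 1 with TMM factors. The edgeR strain comparison in TET without clonotypes of 1 count could not be had, since TRBV29 failed the filter. Depth limits WT TET most, with 13 TRBV29 clonotypes.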
